A study of Mus musculus with 6 samples.

Results

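The hedgehog pathway was followed through 9 genes that stand for its successive steps: the secreted ligands Shh, Ihh and Dhh, the receptor Ptch1, the ligand-binding membrane protein Hhip, the transducer Smo, and the transcription factors Gli1, Gli2 and Gli3. They were chosen by gene symbol, and each symbol had 1 probe set among the 24675 genes of the array table. Ventral aortic tissue, the cells underneath the dorsal aorta, was set against dorsal aortic tissue, the cells between the notochord and the aortic roof, with 3 arrays each. Both came from C57Bl/6 mouse embryos at embryonic day 10.5 and were cut by laser microdissection from stained frozen sections of 20 micrometres, without treatment, transgene or sort. The regions were chosen by position and hold several cell types, and the number of embryos per array was not given in the sources used here. According to the labels, the same embryos gave both regions and the arrays are numbered 1 to 3 in each, but no label states that equal numbers share an embryo. Where nothing ties an array to one embryo, the p-values measure only the spread between these arrays.

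Hedgehog proteins are lipid-modified signals that leave the producing cell and bind Ptch1 on a neighbour. Unbound Ptch1 keeps Smo, a membrane protein of the primary cilium, inactive. Bound Ptch1 releases Smo, and the Gli factors then act as activators, whereas without the signal Gli3 and part of Gli2 are cut to repressors. In the mouse embryo the notochord and floor plate make Shh on the dorsal side of the aorta and the gut endoderm makes Shh and Ihh on its ventral side. The positions of the samples therefore raise the question of whether transcripts of this pathway differ between the aortic roof and floor. The definitions of the regions name the notochord only as a border, and name neither floor plate nor gut endoderm. Ligand made by cells outside the samples is not measured by these arrays.

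None of the 9 genes differed between ventral and dorsal tissue beyond the spread between arrays. In limma, a linear model that pools the spread over all genes, the adjusted p of the members lay between 0.692 and 0.983. At a threshold of 0.05, 0 of 9 members passed, beside 0% of the 24675 genes tested. At an unadjusted p under 0.05 the count was again 0 of 9, beside 10.2% of all genes. The log2 fold changes, ventral minus dorsal, ran from -0.20 for Ptch1 to 0.30 for Dhh, with a median of -0.05 over the members against -0.06 over all genes. The ventral and dorsal values overlapped for all 9 members, beside 18.7% of all genes whose groups did not overlap. No member kept 1 direction in the 3 pairs of equal number, beside 35.1% of all genes that did. For Smo this rested on a near tie of 0.00037 in the arrays numbered 2, beside -0.09 and -0.32 in the other pairs. Counts over 9 genes are small and were not read as a trait of the members.

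The signals behind these values were dim. The unit is the RMA signal on a log2 scale, and the array medians lay between 3.20 and 3.27. Olfactory and vomeronasal receptor genes, whose transcripts belong to sensory neurons of the nose, served as a description of the signal where no transcript was looked for. The middle value of these 1360 genes was 2.59, and their 95th percentile was 4.66. Of the members, Ihh alone had a mean above that percentile, at 4.72 over the 6 arrays. Gli1 at 4.56 and Smo at 4.51 lay just under it, and Hhip at 2.44 lay below the middle value. Probe sets differ in brightness at equal transcript level, so this gives no order of the members by abundance and is not a detection call. A difference between tissues near the background can be larger in transcript than in signal. Fewer cells of a type and less RNA per cell cannot be told apart in such samples.

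**Figure D1:**
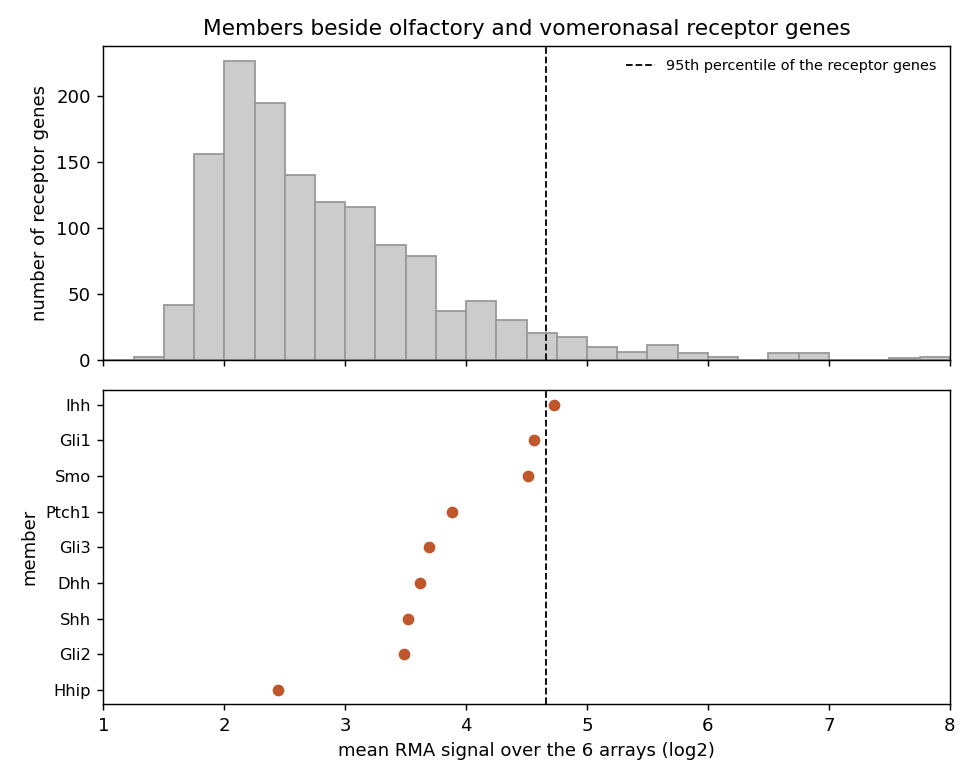
The upper panel counts olfactory and vomeronasal receptor genes by mean RMA signal over the 6 arrays (log2), and the lower panel gives the same mean for each of the 9 members as a point. The dashed line is the 95th percentile of the receptor genes at 4.66, and only Ihh at 4.72 lies to its right.

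Shh, the ligand of the notochord and floor plate, had signals of 3.44, 3.49 and 3.54 in ventral tissue, against 3.40, 3.75 and 3.48 in dorsal tissue. The ventral values lay within the dorsal range, and the only array apart from the rest was dorsal array 2. The log2 fold change was -0.05 ± 0.18 (SE), with a 95% interval from -0.49 to 0.38. Ihh, which patterns gut and cartilage, was at 4.80, 4.53 and 4.82 in ventral and at 4.90, 4.90 and 4.40 in dorsal tissue. Dorsal array 3 was the lowest and dorsal arrays 1 and 2 the highest of the 6, so the ventral arrays fell between them. Its log2 fold change of -0.01 ± 0.21 was the smallest in size among the members, and the interval ran from -0.54 to 0.51.

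Dhh, the ligand of Schwann cells and of the male gonad, showed the largest difference among the members, without passing the test. Its signals were 3.93, 4.10 and 3.26 in ventral tissue, against 3.65, 3.23 and 3.53 in dorsal tissue. Ventral arrays 1 and 2 stood above all dorsal arrays, and ventral array 3 stood below dorsal arrays 1 and 3. The log2 fold change was 0.30 ± 0.25 (SE), with an interval from -0.33 to 0.92 and a limma adjusted p of 0.692. Between equal numbers the differences were 0.29, 0.87 and -0.26. Without both arrays numbered 3 the difference was 0.58, and without both numbered 2 it was 0.01.

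Markers of cells that make these ligands gave 0 calls in limma over all genes. Of 17 notochord and floor plate markers 15 were measured, with a median log2 fold change of -0.20. In 11 of the 15 it was negative, beside 58% of all genes. The examples with the smallest p were Ferd3l, a transcription factor of the floor plate, with -0.68, and Ntn1, an axon guidance cue of the floor plate, with -0.48. Only 3 of the 15, Cd24a, Krt8 and Krt18, exceeded the 95th percentile of the receptor genes, and none of these is specific to the notochord. The summed linear signal of the list was 223 to 263 in ventral and 249.7 to 300.2 in dorsal arrays, ranges that overlap. Gut endoderm markers had a median of -0.09 over 15 of 16 genes, 9 of them negative, and 0.0694 without ventral replicate 1. In the gut list the groups did not overlap in the tight junction protein Cldn6 and the transcription factor Foxa3, with log2 fold changes of 0.55 and 0.53. They also did not overlap in the epithelial adhesion molecule Epcam, picked after its values were seen, with -0.24. These 3 genes are 20% of the 15, beside 18.7% of all genes without overlap. Schwann cell precursor and neural crest markers had a median of 0.02 over 8 of 10 genes. Within this list the glial fatty acid binding protein Fabp7 was at 5.64, 5.09 and 5.66 in ventral and 3.60, 3.82 and 3.80 in dorsal tissue, whereas the crest factor Tfap2a had a log2 fold change of -0.51. The summed signal of the list was 99.0 to 116 in ventral and 71.3 to 81.2 in dorsal arrays, a gap that 1 gene, Fabp7, carried. Without Fabp7 the sums were 55.8 to 65.8 in ventral and 57.1 to 69.0 in dorsal arrays and overlapped. The part of these cell types in the Dhh values was not tested.

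Ptch1 and Hhip both bind the ligands, and transcription of both is raised by hedgehog signalling, so their transcripts are commonly read as a measure of pathway activity. The 250 bases before the transcription start of each are shown as the regulatory sequence nearest to those readouts, from RefSeq for GRCm38.p6. The Ptch1 window is chr13:63565736-63565985 on the minus strand and the Hhip window chr8:80058009-80058258 on the minus strand. Capitals mark the GC box GGGCGG on either strand.
Ptch1: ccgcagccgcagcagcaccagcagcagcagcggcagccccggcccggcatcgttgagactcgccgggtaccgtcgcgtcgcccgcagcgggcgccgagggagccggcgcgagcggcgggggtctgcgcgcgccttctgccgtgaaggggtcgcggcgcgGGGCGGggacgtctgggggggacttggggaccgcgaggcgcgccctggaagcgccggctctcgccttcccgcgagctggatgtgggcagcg
Hhip: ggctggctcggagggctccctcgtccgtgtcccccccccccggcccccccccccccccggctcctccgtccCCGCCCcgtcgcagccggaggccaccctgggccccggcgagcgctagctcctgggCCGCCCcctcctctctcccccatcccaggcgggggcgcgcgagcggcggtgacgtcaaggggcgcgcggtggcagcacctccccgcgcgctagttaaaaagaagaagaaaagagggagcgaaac
The Ptch1 window held 1 GC box and the Hhip window 2. Windows were at hand for 7 of the 9 members, namely Ihh, Dhh, Ptch1, Hhip, Smo, Gli2 and Gli3, and 6 of the 7 held a GC box, all but Smo, against 32.7% of the 32851 windows of all genes. The GC content was 78.4% for Ptch1 and 76.0% for Hhip, higher than in 98.1% and 96.7% of all windows. The Gli consensus GACCACCCA was searched on both strands and stood in 0 of the 7 windows, beside 0.225% of all windows. The motif TATAAA, also searched on both strands, stood in 0 of the 7, beside 12.4% of all. These matches describe the letters of the windows only.

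Ptch1 had signals of 4.36, 3.79 and 3.21 in ventral tissue, against 4.23, 4.44 and 3.29 in dorsal tissue. The arrays numbered 3 were the lowest in both regions and the ventral and dorsal values overlapped almost over their whole range. The spread within the groups, a pooled SD of 0.59, was larger than that of 93.5% of all genes, whose median was 0.25. With the replicate block the log2 fold change was -0.20 ± 0.21 (SE), with an interval from -0.73 to 0.33 and a limma adjusted p of 0.748. The block takes out what same-numbered arrays share, such as the low arrays numbered 3. The unadjusted limma p was 0.382 with the block and 0.607 without it. Hhip, which holds ligand at the cell surface away from Ptch1, was at 2.34, 2.31 and 2.50 in ventral and 2.85, 2.32 and 2.34 in dorsal tissue. Dorsal array 1 stood above the other 5 arrays, which lay between 2.31 and 2.50. Its log2 fold change was -0.12 ± 0.20, with an interval from -0.62 to 0.38, at a signal that was not shown to be above background.

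Smo, the membrane protein that passes the signal into the cell, had the smallest spread of the 9 members. It was at 4.50, 4.49 and 4.34 in ventral tissue, against 4.58, 4.49 and 4.65 in dorsal tissue. The pooled SD was 0.09, and 3.47% of all genes had a smaller one. Ventral array 3 was the lowest and dorsal array 3 the highest, and the arrays numbered 2 had equal signals to 2 decimals. The log2 fold change was -0.14 ± 0.17 (SE), with an interval from -0.57 to 0.29. The SE is larger than this spread alone would give, since limma draws it towards the spread of all genes.

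**Figure D2:**
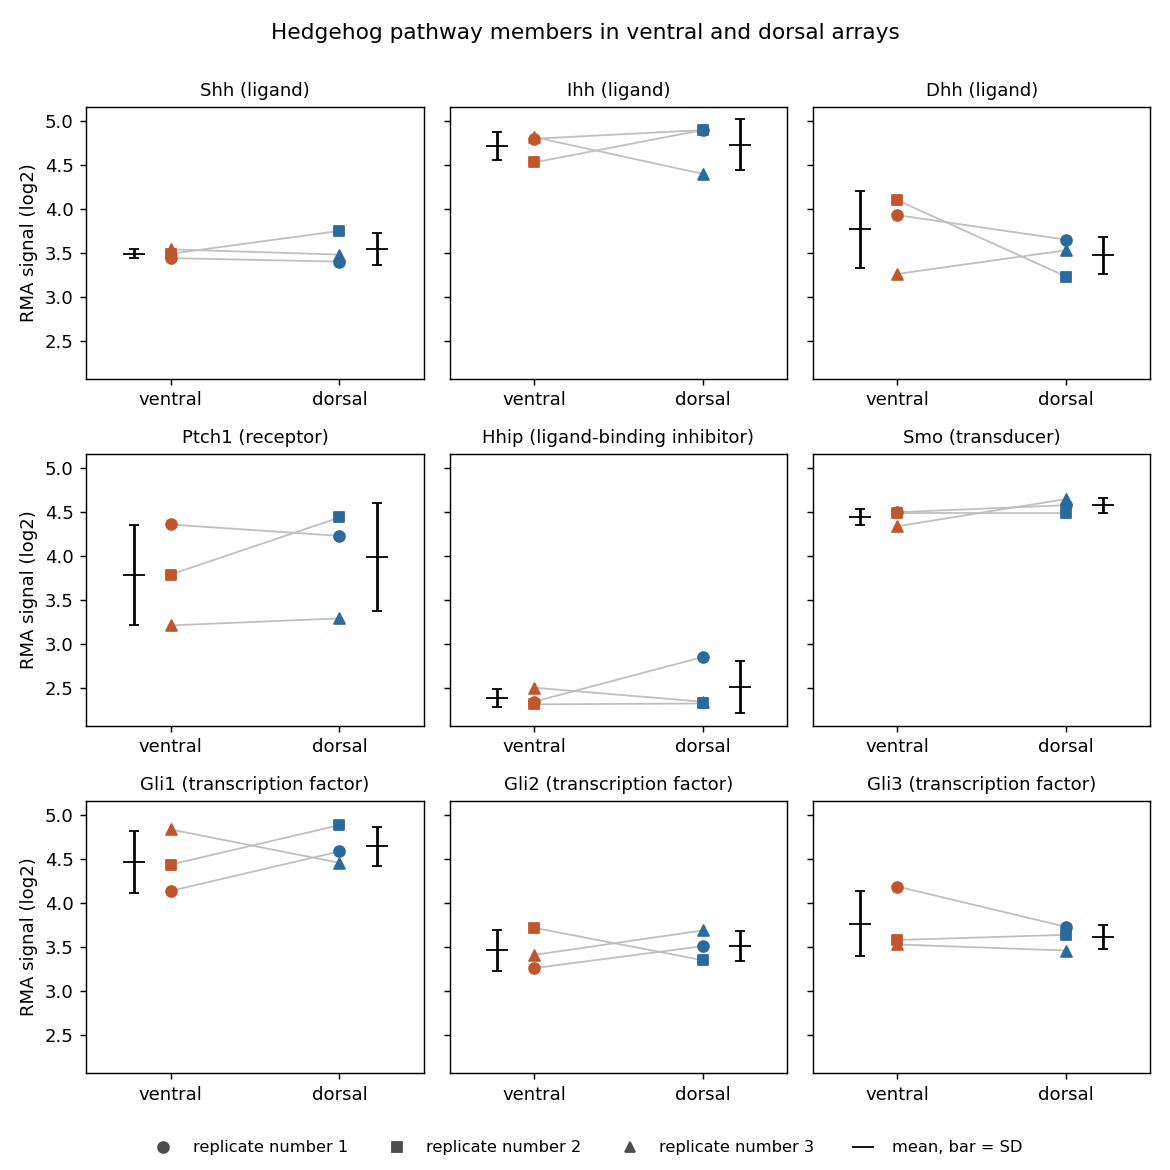
Each panel gives the RMA signal (log2, vertical axis) of 1 member in 3 ventral arrays on the left and 3 dorsal arrays on the right, with grey lines between arrays of equal number and the mean ± SD at the side. Ventral and dorsal points overlap in every panel, Ptch1 has the widest spread and Smo the narrowest, and heights are not comparable between genes.

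Gli1 is itself switched on by hedgehog signalling and acts as an activator only. Its signals were 4.14, 4.44 and 4.84 in ventral tissue, against 4.59, 4.89 and 4.46 in dorsal tissue. In the arrays numbered 1 and 2 ventral tissue was lower, by 0.45 each, and in those numbered 3 it was higher by 0.37. The log2 fold change over all arrays was -0.18 ± 0.23 (SE), with an interval from -0.75 to 0.40 and a limma adjusted p of 0.795. Without both arrays numbered 3 it was -0.45.

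Gli2, the main activator in most mouse tissues, was at 3.26, 3.72 and 3.41 in ventral and 3.51, 3.35 and 3.69 in dorsal tissue. The groups overlapped over nearly their whole range, with the highest ventral value in array 2 and the lowest dorsal value in the array of the same number. The log2 fold change was -0.05 ± 0.21, with an interval from -0.57 to 0.46. Gli3, which supplies most of the repressor form, was at 4.19, 3.58 and 3.53 in ventral and 3.73, 3.64 and 3.46 in dorsal tissue. Ventral array 1 stood above the other 5 arrays, among which the groups were mixed. Its log2 fold change was 0.16 ± 0.19, with an interval from -0.31 to 0.62. Arrays measure transcript and not the cut and full-length forms of the Gli proteins.

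**Figure D3:**
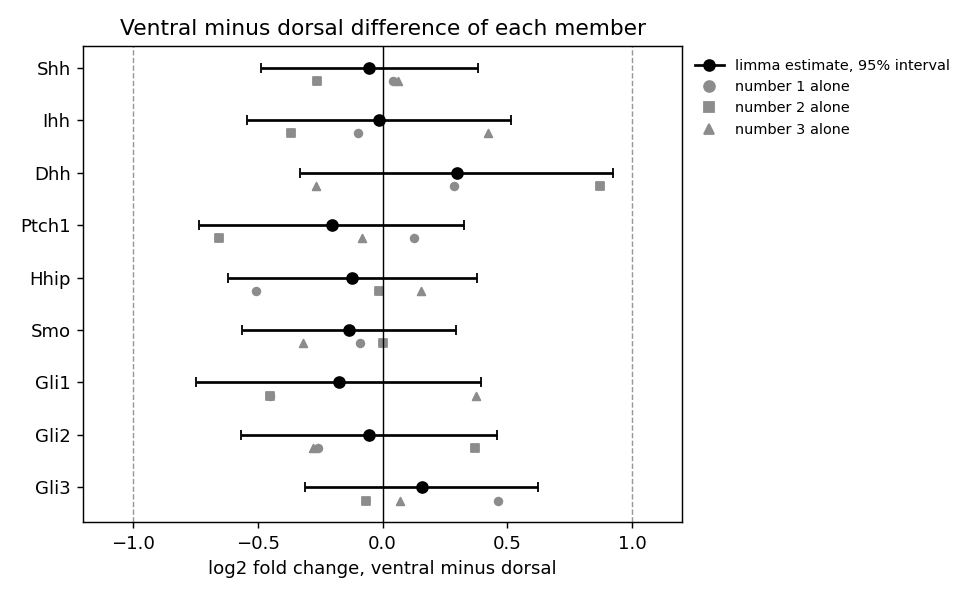
Black points are the limma log2 fold changes of the 9 members, ventral minus dorsal (horizontal axis). Bars are the 95% intervals of the fit with the replicate block, and grey symbols are the differences between arrays of equal number. Every interval includes 0 and lies between the dashed lines at a 2-fold difference, and for every member the grey symbols fall on both sides of 0, although the difference of Smo in number 2 is too small to see.

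The intervals come from the fit with the replicate block and limit how far the signals can differ, given that block. Deviations of same-numbered arrays do not show the pairing that it assumes, and intervals without it are not given here. For Ptch1 the unadjusted limma p was 0.382 with the block and 0.607 without it. With the block all 9 intervals included 0, and all 9 lay within a 2-fold difference in either direction, as those of 80.1% of all genes did. The widest reached a fold of 1.90, for Dhh in favour of ventral tissue. These limits hold for the array signal. A transcript difference was not shown to be limited to the same degree. This holds for the 8 members under the 95th percentile of the receptor genes and for Ihh just above it.

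The other genes of the pathway were followed in 4 lists with 70 genes, of which 67 were measured. The lists were chosen with earlier results of these arrays known. In limma 0 of 67 passed the threshold over all genes. At an unadjusted p under 0.05, 2 of 67 were higher in ventral tissue (2.99%, beside 4.32% of all genes) and 6 of 67 lower (8.96%, beside 5.9%). The groups did not overlap with ventral values higher in 3 genes (4.48%, beside 6.74%) and with ventral values lower in 9 (13.4%, beside 12%). A negative log2 fold change was found in 39 of 67, 58.2%, beside 58% of all genes. These shares lie near those of all genes.

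The 8 genes of ligand maturation and release, all measured, had a median difference of 0.00 on the log2 scale. Hhat, the enzyme that attaches palmitate to hedgehog ligands, and Disp1, which releases them from the membrane, had log2 fold changes of -0.03 and 0.13. The smallest p belonged to Gpc4, a cell surface proteoglycan, at 2.88, 2.68 and 3.07 in ventral and 3.44, 3.25 and 3.69 in dorsal tissue, with an adjusted p of 0.437 in limma. Its groups did not overlap, but no signal reached 4. Scube2, a secreted protein that helps release the ligand, had a log2 fold change of 0.28. Co-receptors and surface modulators had a median of 0.03 over 7 of 8 genes, which was 0.302 without both arrays numbered 1, 0.230 without dorsal replicate 1 and 0.240 with genes under the median signal left out. Gpc3, a proteoglycan that competes with Ptch1 for ligand in the mouse, was at 4.95, 5.56 and 4.43 in ventral and 4.42, 4.89 and 4.29 in dorsal tissue. It was higher in ventral tissue in each pair of equal number while the groups overlapped, and its adjusted p was 0.495 in limma. Ptchd1, a protein with a patched-like domain, had 0.53. The co-receptors Cdon, Boc and Gas1, which present Shh to Ptch1, had 0.02, 0.03 and -0.15.

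Regulators between Smo and Gli had a median of -0.08 over 25 of 26 genes. Gsk3b, a kinase that marks Gli proteins for cutting and acts in several other pathways, had the smallest p. It was at 6.83, 5.29 and 4.41 in ventral and 4.95, 4.39 and 3.70 in dorsal tissue. Every ventral array exceeded the dorsal array of its number, and the groups overlapped. Its log2 fold change was 1.16 ± 0.27 (SE), with a limma adjusted p of 0.429, and the unadjusted limma p was 0.00555 with the replicate block and 0.0883 without it. Iqce, a cilium protein that anchors the Evc complex near Smo, had -0.71. The groups did not overlap in Btrc, Sufu, Ulk3 and Arrb1, lower in ventral tissue, and in Prkacb, higher there, genes picked after their values were seen. These 4 lower and 1 higher of 25 stand beside 12% of all genes lower and 6.74% higher without overlap. Sufu, the inhibitor that holds Gli proteins in the cytoplasm, was at 3.29, 3.15 and 2.96 in ventral and 3.66, 3.47 and 3.38 in dorsal tissue. Its log2 fold change was -0.37 ± 0.17, with a limma adjusted p of 0.514.

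Genes known to respond to hedgehog signalling in the embryo had a median of -0.23 over 27 of 28 genes, and 20 of the 27 had a negative log2 fold change, beside a median of -0.06 and 58% for all genes. The list's median moved with the arrays left out. Without dorsal replicate 2, in a fit without the block, it was -0.0292, beside -0.0451 for all genes. Without both arrays numbered 2, in the fit with the block, it was -0.149, beside -0.0389 for all genes. The smallest p were those of Foxf2, a factor of gut and body wall mesenchyme, and Foxc2, a factor of paraxial mesoderm. Foxf2 was at 3.44, 3.44 and 3.41 in ventral and 4.25, 4.48 and 3.67 in dorsal tissue, and Foxc2 at 3.90, 3.70 and 3.69 in ventral and 4.56, 4.07 and 4.16 in dorsal tissue. In both genes all dorsal arrays lay above all ventral arrays, with limma adjusted p of 0.444 and 0.464. Nkx3-2 and Foxc1, named after their values were seen, had log2 fold changes of -0.51 and -0.48 and completed the 4 genes of this list that were lower at an unadjusted p under 0.05. Bcl2, an inhibitor of cell death named likewise, was the only one higher, with 0.49. The 4 lower and 1 higher are 14.8% and 3.7% of the 27, beside 5.9% and 4.32% of all genes.

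The response list shares Pax1, Pax9, Nkx3-2, Foxc1 and Foxc2 with the list of sclerotome, the mesenchyme next to the notochord that forms vertebrae. Those 5 had a median of -0.48, and all 5 were negative. The other 22 genes had a median of -0.14, with 15 negative. The sclerotome list itself had a median of -0.38 over 12 genes, 11 of them negative, beside 58% of all genes. It was led by the mesenchymal factor Twist1 at 4.20, 5.71 and 5.46 in ventral and 6.62, 6.37 and 6.57 in dorsal tissue. The summed signal of the list was 159.5 to 207 in ventral and 279 to 298 in dorsal arrays. Twist1, the brightest gene of the list and the one with its largest log2 fold change, -1.40, weighs heavily in this linear sum. A sum without Twist1 is not given here. None of the 12 passed the limma threshold over all genes, and the part of this tissue in the response list was not tested. Splanchnic and lateral plate mesoderm markers had a median of 0.01 over 14 genes, with 0.34 for Prrx1 besides Foxf2. Endothelial markers had 0.00 over 12 genes, with -0.37 for Erg and 0.18 for Kdr, and none of them exceeded the 95th percentile of the receptor genes, although both regions border the aorta. The list of immediate early genes, which react to tissue handling, had a median of -0.15 over 18 genes. In 12 of the 18 the log2 fold change was negative, beside 58% of all genes. The list median was -0.0270 without ventral replicate 1 or -0.0749 without both arrays numbered 3. In this list the groups did not overlap in Jun and Zfp36, with log2 fold changes of -0.58 and -0.85. They also did not overlap in Klf6 and Fosb, picked after their values were seen, with 0.33 and 0.26. These 4 genes are 22.2% of the list, beside 18.7% of all genes without overlap.

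**Figure D4:**
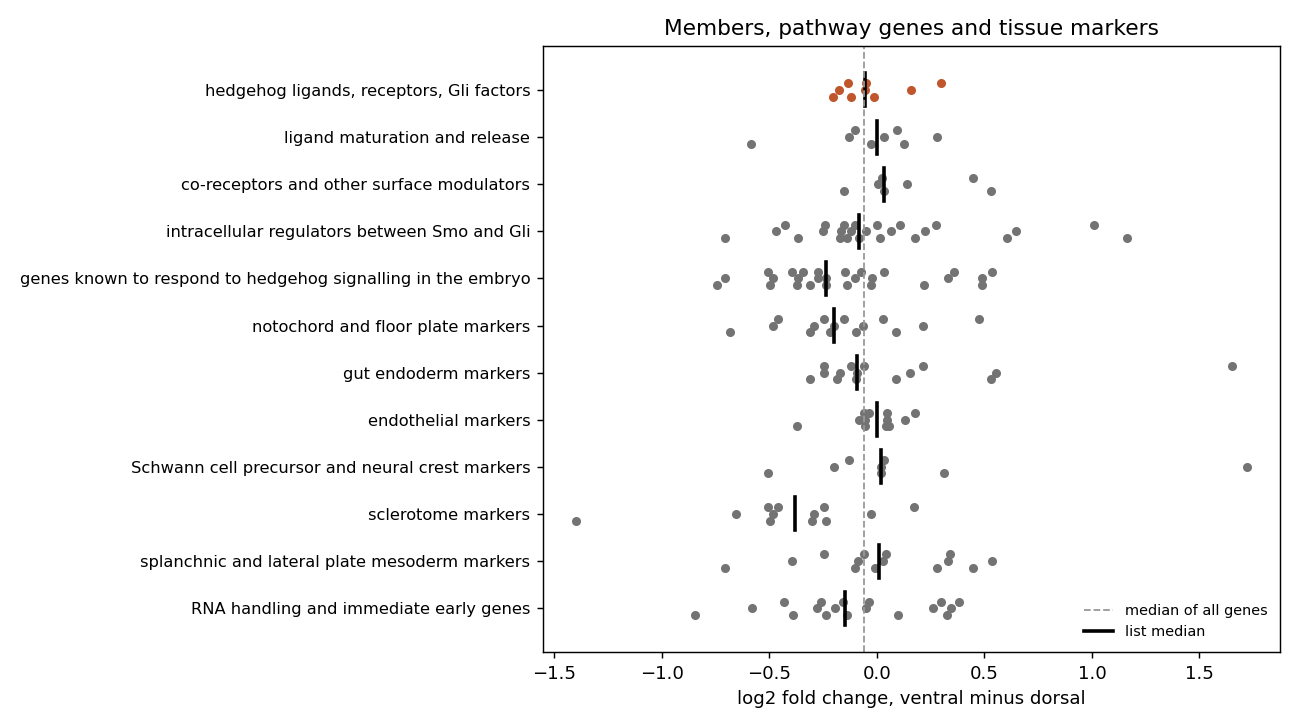
Each point is the log2 fold change, ventral minus dorsal, of 1 gene, for the 9 members in the top line and for each list of pathway genes or tissue markers below. Black bars are list medians and the dashed line is the median of all genes at -0.06, close to the members' median of -0.05, while the response genes at -0.23 and the sclerotome markers at -0.38 lie further left. Without dorsal replicate 2 and without the block the response median was -0.0292, beside -0.0451 for all genes. Without both arrays numbered 2 and with the block it was -0.149, beside -0.0389 for all genes.

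For each member the gene most like it over the 6 arrays was named by Pearson's r among candidate genes with a mean above 4. This is a description of arrays that share embryos and processing. Left out of the candidates were genes named by Gm and a number or by Rik, and olfactory and vomeronasal receptor genes. MicroRNA, small nucleolar and small nuclear RNA genes were left out as well. These were Simc1 for Shh (0.983), Trav1 for Ihh (0.987), Rbm39 for Dhh (0.983), Grhl3 for Hhip (0.978), Slirp for Smo (0.993), Ctdsp2 for Gli1 (0.991), Hipk3 for Gli2 (0.954) and Tor1aip2 for Gli3 (0.995). For Ptch1 it was AA465934 (0.956). Among 3628 or 3629 candidates, between 1 and 20 genes per member exceeded an r of 0.95, and none of the genes named is a gene of the pathway lists.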

How the data were processed

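Transcripts of laser-microdissected tissue were hybridised to 6 arrays (Affymetrix mouse Gene 2.0 ST), from 200 to 1000 pg of RNA amplified by single primer isothermal amplification, per the labels' protocols. The deposited values are 1 log2 signal per probe set and array, made with Affymetrix Expression Console and RMA, per the submitters' processing notes. The RMA method includes background correction, quantile normalization and probe summary. No source states the log base, which was inferred from their range of 0.971 to 12.9. Of 25429 probe sets, 24675 had 1 gene symbol and 754 none in the platform annotation. All 24675 matched the GRCm38.p6 gene table by gene number. The genome build of the probe sets was not given in the sources used here.

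Tests of ventral against dorsal tissue used limma 3.58.1 (R 4.3.3, lmFit, eBayes, two-sided, Benjamini-Hochberg over all 24675 genes, threshold 0.05, no filter), with the replicate number as a block because both regions came from the same embryos. Fold changes are ventral minus dorsal. An exact permutation test of 3 against 3 arrays cannot go below 0.1 and was not used. The number of arrays limits the precision. The procedure was tested on simulated data with known changes. Large changes were called, and the smallest, of 2-fold, were estimated close to their simulated size but not called. Counts of 0 calls therefore do not exclude changes of that size.

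The members and lists were chosen with earlier results of these data known. All members are named. Of each list up to 4 genes past the threshold, or failing that the 2 with the smallest unadjusted p, are given by name. Further list genes are named outside this rule, among them Hhat, Disp1, Cdon, Boc and Gas1 and those marked as picked after their values were seen. Alternatives were no block, cyclic loess, median centring, 2 filters on dim genes, a trended robust variance prior, and leaving out arrays.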

Additional observations from a re-analysis of the deposited data

How the results depend on the processing

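The count of members past the threshold was 0 under every alternative run, and the lowest adjusted p of any member was 0.55, for Ptch1 without dorsal replicate 3. Without the replicate block the limma adjusted p of the members lay between 0.663 and 0.981, and 1 gene of all was called, Hspb11, against 0 with the block. Same-numbered arrays had deviations from their group means correlated at 0.04, -0.01 and 0.06 across genes, so the arrays do not show the pairing. Cyclic loess turned the log2 fold change of Hhip to 5.05e-06 and left 1 member, Smo, without overlap, beside 17.5% of all genes. Centring arrays on their median turned Ihh to 0.0291. The cause was not tested. Hhip has no value under both filters on dim genes.

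Fits without both arrays of 1 number, or without 1 array and without the block, gave ranges of -0.12 to 0.0522 for Shh, -0.23 to 0.16 for Ihh, 0.01 to 0.58 for Dhh, -0.55 to 0.0841 for Ptch1, -0.26 to 0.0716 for Hhip, -0.20 to -0.04 for Smo, -0.45 to -0.01 for Gli1, -0.27 to 0.0566 for Gli2 and -0.0560 to 0.275 for Gli3. Dhh stayed positive, and Smo and Gli1 negative, in all 15 alternatives. With every array kept, dropping the block, filtering dim genes or changing the variance prior leaves a gene's log2 fold change as it is. Those alternatives therefore could not turn a sign, and only cyclic loess, median centring and leaving out arrays tested it. The median of the members ranged from -0.11 to 0.02 in the fits with arrays left out. In the same fits the list medians ranged from -0.194 to 0.0978 for ligand maturation, 0.0286 to 0.302 for co-receptors, -0.0983 to 0.0136 for the Smo to Gli regulators, -0.277 to -0.0292 for response genes, -0.448 to -0.317 for sclerotome, -0.267 to -0.105 for notochord, -0.182 to 0.0694 for gut, -0.139 to 0.0741 for endothelium, -0.0553 to 0.0424 for Schwann cell precursors, -0.106 to 0.164 for splanchnic mesoderm and -0.201 to -0.0270 for immediate early genes. With genes under the median signal left out, the Schwann cell precursor median was 0.314. The calls over all genes ranged from 0 to 5, with 5 without both arrays numbered 1. Between 0 and 3 members did not overlap, the 3 being Ihh, Dhh and Gli1 without both arrays numbered 3, when 41.9% of all genes did not overlap. Dhh had an unadjusted limma p of 0.0348 without ventral replicate 3. Background correction and scan date could not be varied with the values used here.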
